A study of Homo sapiens with 6 samples.

Results

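The 59 genes described here encode cytokines and cytokine receptors: 38 receptor genes and 21 ligand genes, out of 58735 genes with a row in the count tables. They were chosen by symbol, through the Ensembl identifier of each row in GENCODE 29, a rule that uses no measured value. RNA-seq was run on Jurkat, a human leukaemic T cell line in long use, after infection with a lentiviral vector. The vector carried a short hairpin RNA against SATB1 (shSATB1, 3 libraries) or a control hairpin (shCtrl, 3 libraries). All cells came from this 1 line, and the control cells carried a lentiviral hairpin too. SATB1 encodes a chromatin-organising protein abundant in T cells, and the comparison asks which transcripts differ when it is lowered.

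A cytokine acts by bringing receptor chains together at the cell surface. Chains of the class I and class II receptors carry Janus kinases (JAKs), which phosphorylate STAT transcription factors, and several receptors share a chain, such as the common gamma chain encoded by IL2RG or gp130 encoded by IL6ST. Receptors of the TGF-beta family are serine/threonine kinases that phosphorylate SMAD proteins, and members of the TNF receptor family recruit TRAF adaptors or death-domain proteins. In T cells SATB1 is known to organise the cluster that holds IL4, IL5 and IL13 and to act on IL2RA, the gene of the inducible IL-2 receptor chain.

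Between 26626539 and 28143385 reads fell in genes in the shSATB1 libraries, against 27737353 to 28913623 in the shCtrl libraries. Levels are given as CPM, counts scaled to the TMM-adjusted library size, and between genes as RPKM, the same value per kilobase of annotated exon. SATB1 stood at 101.8, 100.2 and 104.1 CPM in shSATB1 replicates 1, 2 and 3, against 279.1, 258.5 and 259.3 CPM in shCtrl replicates 1, 2 and 3, with a log2 fold change of -1.38 (standard error 0.0611, edgeR quasi-likelihood test, adjusted p = 1.11e-08). Its groups did not overlap, and the exact two-sided permutation test gave p = 0.1, the smallest that 3 against 3 libraries allow. The share of reads outside annotated exons was 11.7%, 10.9% and 11.6% in the shSATB1 libraries, against 10.2%, 7.77% and 9.36% in the shCtrl libraries. Its part in single results was not tested other than by a fit with this share as a covariate. The groups did not overlap in this share, so that fit cannot fully tell it apart from the hairpin. All 10 T cell markers looked at were measured, with a sum of 3568 to 3710 CPM in shSATB1 and 3443 to 3881 CPM in shCtrl. Of these, PTPRC and TRAC rose (log2 fold changes of 0.68 and 0.47) and CD3D, CD247, TRBC1 and CD2 fell (-0.31, -0.24, -0.39 and -0.39). Myeloid markers summed to 1.17 to 2.22 CPM in shSATB1 and 1.22 to 1.62 CPM in shCtrl, and natural killer cell markers to 0.983 to 1.97 CPM and 0.982 to 1.33 CPM in the same groups. B cell markers summed to 48.1 to 56.0 CPM in shSATB1 and 55.2 to 65.2 CPM in shCtrl, nearly all of it CD79A, which fell (edgeR adjusted p = 0.0249). The sum of 4 epithelial or fibroblast markers was 21.3 to 23.2 CPM in shSATB1 and 15.8 to 18.1 CPM in shCtrl, without overlap. Nearly all of it was COL1A1, which rose (20.8 CPM in shSATB1 and 15.5 CPM in shCtrl on average, adjusted p = 0.00295), while EPCAM had no read in either group. Of the erythroid genes HBB and HBA1, HBB had 16 reads in shSATB1 and none in shCtrl, and HBA1 had none in either group. The part of these markers in the results below was not tested. The labels do not say whether replicates were grown or infected separately. Every p-value therefore reflects the spread among these 6 libraries, part or all of which could be technical.

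Of the 59 genes, 44 passed the filter on low counts and could be tested, and 15 could not. Among the 44, 20 passed the quasi-likelihood test of edgeR at 0.05, after adjustment by Benjamini and Hochberg over all genes tested, and 16 of them rose and 4 fell. Of all 17520 genes tested, 30.9% passed, with 14.3% higher and 16.6% lower. The counts come to 36.4% of the tested cytokine and receptor genes higher and 9.09% lower. The rises include IL10, which passed the filter through the shSATB1 libraries alone and so could only be called higher. All 3 shSATB1 libraries stood above all 3 shCtrl libraries in 19 of the 44 genes and below them in 6. Of all genes tested, 45.1% had groups that did not overlap, 21.7% higher and 23.4% lower. The median log2 fold change was 0.23 over the 44 genes and 0.01 over all genes tested. Receptors and ligands shared this direction: 11 of 32 tested receptor genes rose and 3 fell, and 5 of 12 tested ligand genes, IL10 included, rose and 1 fell. In bulk RNA, a change in the share of cells that express a gene cannot be told apart from a change in its RNA per cell.

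**Figure D1:**
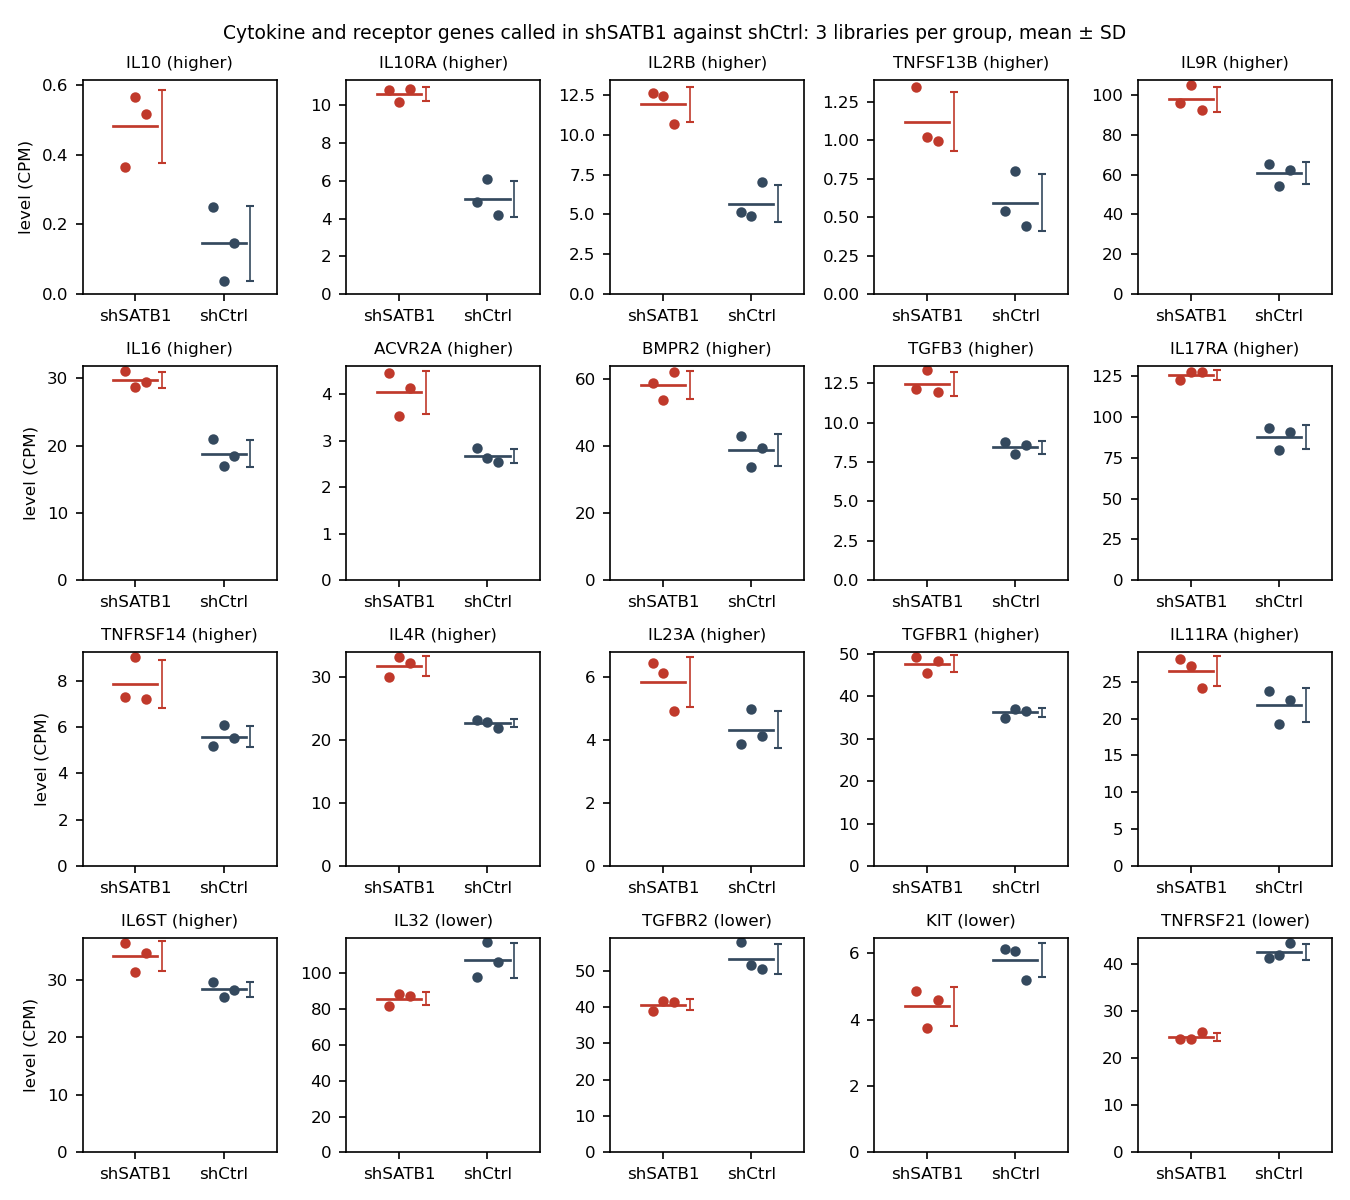
CPM in each library for the 20 cytokine and receptor genes that passed the test, shSATB1 left of shCtrl in each panel, with 3 libraries a group, lines at the mean and bars for the SD. The groups stand apart in 19 of the 20 panels, and in the IL23A panel they overlap. IL10 passed the filter on low counts through the shSATB1 libraries alone.

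Exon length went with the direction of change. In the longest of 5 equal groups of tested genes 28.6% rose and 10.2% fell, while in the shortest 5.34% rose and 11.5% fell. The median exon length was 4277 bases over the 44 genes and 4121.5 bases over all genes tested. With levels corrected for exon length in each library, 20 of the 44 genes rose and 3 fell. Over all genes that correction gave 3279 higher (18.7%) and 2415 lower (13.8%), in place of 2500 and 2910. Tested against a change of 1.2-fold rather than none, 8 of the 44 genes rose and 1 fell, where 4.33% of all genes rose and 3.98% fell.

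Promoters of 51 of the 59 genes are in RefSeq's sequences for GRCh38.p14, taken as 250 bases before and 50 bases after each start. Those of 4 of the 5 called genes that hold an AP-1 motif are shown, 3 that rose and TGFBR2, which fell, with that of TNFRSF21, which fell and does not hold it. They show where the motif lies and were picked after the values and sequences were seen. Of the 18 called genes with a promoter, 13 lack the motif. Capitals mark the AP-1 motif TGANTCA, searched on both strands.
IL10RA, chr11:117989695-117989994, plus strand: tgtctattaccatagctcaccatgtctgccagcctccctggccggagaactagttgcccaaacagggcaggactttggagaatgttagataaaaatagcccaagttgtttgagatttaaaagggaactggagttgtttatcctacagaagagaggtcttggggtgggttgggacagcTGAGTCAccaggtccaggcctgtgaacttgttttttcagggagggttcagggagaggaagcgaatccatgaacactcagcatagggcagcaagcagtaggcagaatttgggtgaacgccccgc
IL9R, chrX:155997446-155997745, plus strand: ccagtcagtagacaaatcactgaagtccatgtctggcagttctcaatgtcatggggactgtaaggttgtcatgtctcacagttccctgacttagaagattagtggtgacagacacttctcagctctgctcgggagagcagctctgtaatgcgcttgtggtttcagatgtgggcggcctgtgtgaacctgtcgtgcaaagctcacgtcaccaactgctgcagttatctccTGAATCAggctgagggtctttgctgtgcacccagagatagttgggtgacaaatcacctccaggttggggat
IL23A, chr12:56338634-56338933, plus strand: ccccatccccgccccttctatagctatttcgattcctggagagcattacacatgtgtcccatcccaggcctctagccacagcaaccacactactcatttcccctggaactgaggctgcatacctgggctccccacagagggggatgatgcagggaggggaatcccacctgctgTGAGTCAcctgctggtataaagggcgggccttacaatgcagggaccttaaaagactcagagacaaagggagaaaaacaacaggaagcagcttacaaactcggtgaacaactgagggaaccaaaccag
TGFBR2, chr3:30606351-30606650, plus strand: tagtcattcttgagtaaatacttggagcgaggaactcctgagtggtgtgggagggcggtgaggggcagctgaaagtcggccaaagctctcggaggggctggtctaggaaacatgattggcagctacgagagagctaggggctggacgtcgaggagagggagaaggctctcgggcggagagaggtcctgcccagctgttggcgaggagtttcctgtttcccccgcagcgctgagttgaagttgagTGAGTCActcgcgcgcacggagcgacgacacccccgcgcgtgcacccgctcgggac
TNFRSF21, chr6:47309856-47310155, minus strand: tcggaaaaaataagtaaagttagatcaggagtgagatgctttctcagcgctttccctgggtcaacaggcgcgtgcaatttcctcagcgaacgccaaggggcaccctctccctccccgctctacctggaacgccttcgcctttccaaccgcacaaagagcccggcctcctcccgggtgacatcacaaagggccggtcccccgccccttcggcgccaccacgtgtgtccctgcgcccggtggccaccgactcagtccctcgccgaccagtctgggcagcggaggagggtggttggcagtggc
The motif begins 73 bases before the start in IL10RA, 21 before it in IL9R, 77 before it in IL23A and 6 before it in TGFBR2. These positions count from RefSeq's start, which lies 3597, 115, 4710 and 99 bases inside the GENCODE gene in IL10RA, IL9R, IL23A and TGFBR2. The motif was not found in the window of TNFRSF21 or in the other listed window of TGFBR2. It occurs in 7.71% of 35116 human promoters of this length and in 16.5% of the 79 promoters listed for these genes, which belong to 10 genes. Of these 10, IL10, IL10RA, IL23A and IL9R rose and TGFBR2 fell, beside 18 called among all 51 genes with a promoter. CXCL8, IL6R and TNFRSF9 of the 10 could not be tested, nor could some others of the 51. IL10 passed the filter through the shSATB1 libraries alone. The STAT motif TTCNNNGAA occurs in 7.66% of all human promoters and 11.4% of these 79, which belong to 7 genes. Of these 7, CSF2, IFNG and TNFRSF9 could not be tested, and 0 of the 7 were called. For this and the other motifs, 30.9% of all genes tested were called, and the counts are too small to set against that share. The RUNX motif TGTGGT occurs in 13.1% of all and 24.1% of these promoters, in 16 genes with 7 called and CSF2, IL2, MIF and TNFRSF9 not tested. The GATA motif, searched as AGATAA, occurs in 10.3% of all and 10.1% of these promoters, in 7 genes with 4 called and IL18R1 and TGFB2 not tested. The TATA box, searched as TATAAA, occurs in 11.5% of all and 12.7% of these promoters, in 10 genes with 3 called and CXCL8, IFNG, TGFB2 and TNF not tested. The called genes of the RUNX and TATA counts include IL10, which could only be called higher. A match is a string of letters in a window and not a measured site.

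All 7 receptor genes of the common gamma chain family were tested, and 3 of them rose, where 14.3% of all genes tested rose: IL2RB, IL4R and IL9R. IL2RB (ENSG00000100385, chromosome 22, 37125838 to 37175054, minus strand, hg38) encodes the beta chain shared by the receptors for IL-2 and IL-15. It stood at 12.6, 12.5 and 10.7 CPM in shSATB1, against 5.13, 4.87 and 7.02 CPM in shCtrl. Every shSATB1 library lay above every shCtrl library. IL2RB was 2.10-fold higher (95% interval 1.71 to 2.58, edgeR adjusted p = 9.54e-05). IL9R (ENSG00000124334, chromosome X, 155997581 to 156010817, plus strand), the ligand-specific chain of the IL-9 receptor, stood at 95.7, 105 and 92.6 CPM in shSATB1, against 65.2, 54.4 and 62.5 CPM in shCtrl. Its groups did not overlap, and it was 1.61-fold higher (1.44 to 1.81, adjusted p = 3.11e-05). IL9R lies in a pseudoautosomal region and has pseudogene copies. Of these IL9RP3 held 117 reads in shSATB1 and 89 in shCtrl, IL9RP4 held 3 in shSATB1 and 0 in shCtrl, and IL9RP2 held none, so the count of IL9R itself, 8291 reads in shSATB1 and 5004 in shCtrl, is uncertain.

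IL4R (chromosome 16, 27313668 to 27364778, plus strand) encodes the chain that binds IL-4 and, with a partner, IL-13. It stood at 30.0, 33.1 and 32.2 CPM in shSATB1 and at 23.2, 22.9 and 21.9 CPM in shCtrl, without overlap, and was 1.40-fold higher (1.25 to 1.57, edgeR adjusted p = 0.00035). Its neighbour IL21R, which begins 37383 bases away, had 4.09 ± 0.421 CPM in shSATB1 and 3.11 ± 0.402 CPM in shCtrl (mean ± SD, n = 3 each, as in all such values) and missed the test (adjusted p = 0.0793). IL2RG, the common gamma chain itself (chromosome X, 71107404 to 71112108, minus strand), was at 23.3, 26.6 and 26.4 CPM in shSATB1 and at 25.1, 35.7 and 29.6 CPM in shCtrl. These groups overlapped, the log2 fold change was -0.24 with a 95% interval of -0.48 to -0.01, and the adjusted p was 0.112. IL2RG was called lower without shCtrl replicate 1 (adjusted p = 0.00173), with no filter (0.0272) and with a replicate block (0.0391), within a range of 0.00173 to 0.755 over the other settings. An overlapping protein-coding gene, AL590764.2, shares 50.8% of the exon bases of IL2RG on the same strand, so its count is uncertain.

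IL2RA, the alpha chain that raises the affinity of the IL-2 receptor, was near the limit of detection, at 10, 16 and 15 reads in shSATB1, against 0, 12 and 2 reads in shCtrl. It reached the level of the filter in every shSATB1 library but in shCtrl only in replicate 2, so it passed only with the shSATB1 libraries. These reads make 0.482 ± 0.105 CPM in shSATB1 and 0.170 ± 0.234 CPM in shCtrl, where 3 reads in a library make 0.103 to 0.111 CPM. The groups overlapped through shCtrl replicate 2, and the log2 fold change of 1.48 (95% interval 0.02 to 2.94) missed the test (edgeR adjusted p = 0.116). With each library left out the log2 fold change lay between 0.89, without shCtrl replicate 1, and 3.58, without shCtrl replicate 2. IL2RA was called without shCtrl replicate 2 (adjusted p = 0.000956), with no filter (0.0468), by limma-voom (0.0263) and with the share of reads outside exons as a covariate (0.00137, with a log2 fold change of 5.39), in a range of 0.000956 to 0.316 over the settings that gave one. Its neighbour IL15RA, the alpha chain of the IL-15 receptor, which lies 32501 bases away, had the opposite sign, at 0.661 ± 0.146 CPM in shSATB1 and 1.15 ± 0.486 CPM in shCtrl (adjusted p = 0.101, and 0.0121 without shCtrl replicate 2, in a range of 0.0121 to 0.415). For IL21R leaving out the same library gave 0.0420, in a range of 0.0420 to 0.373. The difference between the neighbours was not tested.

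Per length, the IL-2 receptor chains were ordered IL2RG, IL2RB, IL2RA in both groups. IL2RG had 9.21 ± 0.657 RPKM in shSATB1 and 10.9 ± 1.93 RPKM in shCtrl, IL2RB 2.53 ± 0.233 RPKM in shSATB1 and 1.21 ± 0.249 RPKM in shCtrl, and IL2RA 0.122 ± 0.0264 RPKM in shSATB1 and 0.0429 ± 0.0590 RPKM in shCtrl. The levels of the 3 chains lay apart by more than their spread. The ratio of IL2RB to IL2RG per length was 0.277 ± 0.0404 in shSATB1 and 0.113 ± 0.0301 in shCtrl, a log2 difference of 1.32 that lay between 1.09 and 1.49 with each library left out. IL9R to IL2RG was 4.25 ± 0.340 in shSATB1 and 2.29 ± 0.594 in shCtrl, and IL4R to IL2RG 0.585 ± 0.0156 in shSATB1 and 0.360 ± 0.0670 in shCtrl. The count of IL2RG, like that of IL9R, is uncertain as said above, so its level per length and these ratios are too. The groups did not overlap in any of these 3 ratios. They were computed after the levels had been seen, and the exact permutation test of each gave p = 0.1, the smallest possible. A ratio of transcripts says nothing about the chains at the cell surface.

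**Figure D2:**
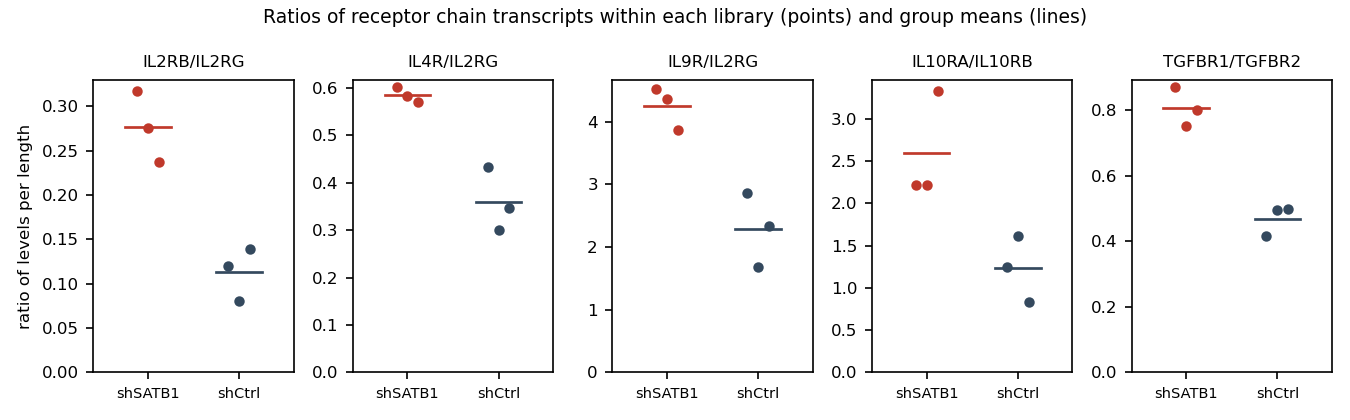
Ratio per exon length between chains of the same receptor in each library, shSATB1 left of shCtrl, with a line at the mean of 3 libraries. In all 5 ratios the shSATB1 libraries lie above the shCtrl libraries, for example 0.277 against 0.113 on average for IL2RB to IL2RG. The pairs were chosen after the levels had been seen.

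Among the gp130 and IL-12 family receptors, 2 of 5 tested genes rose, by small amounts, where 14.3% of all genes tested rose. IL6ST, the signal-transducing chain gp130 (chromosome 5, 55935095 to 55994993, minus strand), stood at 36.3, 31.3 and 34.7 CPM in shSATB1, against 29.6, 27 and 28.2 CPM in shCtrl. IL11RA, the chain that binds IL-11 (chromosome 9, 34650702 to 34661892, plus strand), stood at 28.1, 27.1 and 24.1 CPM in shSATB1, against 23.8, 19.2 and 22.5 CPM in shCtrl. The groups did not overlap in either gene, and both were 1.21-fold higher (edgeR adjusted p = 0.0183 for IL6ST and 0.0383 for IL11RA). Both calls were near the threshold, and with each library left out the log2 fold change of 0.27 in IL6ST lay between 0.23 and 0.34 and that of 0.28 in IL11RA between 0.20 and 0.35. For IL6ST the adjusted p was 0.0978, 0.0686 and 0.0716 without shSATB1 replicate 1, shSATB1 replicate 3 and shCtrl replicate 3, in a range of 0.00645 to 0.707 over all settings. For IL11RA it was 0.148, 0.108, 0.0840 and 0.0785 without shSATB1 replicates 1 and 2 and shCtrl replicates 2 and 3, each left out alone, in a range of 0.00553 to 0.923. IL27RA, a chain of the IL-27 receptor, had 10.4 ± 1.6 CPM in shSATB1 and 8.56 ± 0.687 CPM in shCtrl (adjusted p = 0.112, and 0.0372 without shSATB1 replicate 3, in a range of 0.0167 to 0.647). IL12RB1, at 4.79 ± 0.339 CPM in shSATB1 and 5.65 ± 0.659 CPM in shCtrl, and IL12RB2, at 0.534 ± 0.231 CPM in shSATB1 and 0.535 ± 0.172 CPM in shCtrl, make up the IL-12 receptor, and neither passed.

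The IL-6 receptor chain gene IL6R was too low for the test, with 11, 11 and 8 reads in shSATB1 and 1 read in each shCtrl library. Over the groups that is 30 reads against 3, a ratio of 9.72 with an exact 95% interval of 3.02 to 49.8 that covers counting error only.

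Of 6 class II receptor genes, all tested, only IL10RA rose, where 14.3% of all genes tested rose. IL10RA (ENSG00000110324, chromosome 11, 117986348 to 118003037, plus strand), the chain that binds IL-10, stood at 10.8, 10.2 and 10.9 CPM in shSATB1, against 4.88, 6.07 and 4.17 CPM in shCtrl. The groups were well separated, and it was 2.11-fold higher (1.73 to 2.56, edgeR adjusted p = 6.67e-05). Its partner IL10RB, which also serves other class II receptors, had 2.73, 2.58 and 1.83 CPM in shSATB1 and 2.19, 2.11 and 2.81 CPM in shCtrl, with a 95% interval of -0.44 to 0.45 for its log2 fold change. The groups of IL10RB overlapped, its adjusted p was 0.990, and the sign of its log2 fold change turned in 8 of 15 other settings, in a range of -0.098 to 0.17. Per length the ratio of IL10RA to IL10RB, formed after both levels had been seen, was 2.59 ± 0.643 in shSATB1 and 1.23 ± 0.391 in shCtrl. The log2 difference was 1.10 and lay between 0.84 and 1.32 with each library left out (exact permutation p = 0.1, the smallest possible). It restates the changes of the 2 genes. The count of IL10RB is uncertain, since 38.1% of its exon bases are shared with an overlapping gene, AP000295.1.

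The interferon receptor genes did not pass the test. IFNAR1, a chain of the type I interferon receptor, had 91.6 ± 6.38 CPM in shSATB1 and 101.3 ± 5.20 CPM in shCtrl (edgeR adjusted p = 0.130, and 0.0274 without shCtrl replicate 2, in a range of 0.00850 to 1.00). IFNGR1, the ligand-binding chain for interferon gamma, had 46.3 ± 0.777 CPM in shSATB1 and 42.5 ± 3.91 CPM in shCtrl (adjusted p = 0.236, and 0.0252 without shCtrl replicate 2, in a range of 0.00465 to 1.00). IFNGR2, its partner chain, had 18.2, 18.0 and 22.4 CPM in shSATB1 and 21.2, 21.1 and 14.0 CPM in shCtrl, so its groups overlapped widely. IFNAR2 had 1.78 ± 0.277 CPM in shSATB1 and 1.27 ± 0.350 CPM in shCtrl, and 83.2% of its exon bases are shared with other genes. IFNAR2, IL10RB, IFNAR1 and IFNGR2 follow each other on chromosome 21 with gaps of 682, 14289 and 43033 bases, and none of these 4 neighbours passed.

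IL17RA (chromosome 22, 17084954 to 17115694, plus strand), the common chain of the IL-17 receptors, stood at 122, 128 and 127 CPM in shSATB1, against 93.5, 79.5 and 90.6 CPM in shCtrl. The groups did not overlap, and it was 1.43-fold higher (1.29 to 1.59, edgeR adjusted p = 0.000121). IL18R1 had no read in shSATB1 and 2 reads in shCtrl. Of the growth factor receptors, KIT, the receptor tyrosine kinase for stem cell factor (chromosome 4, 54657918 to 54740715, plus strand), stood at 4.88, 3.74 and 4.59 CPM in shSATB1, against 6.14, 6.07 and 5.21 CPM in shCtrl. It was lower in every shSATB1 library, by 1.32-fold (1.07 to 1.63, adjusted p = 0.0473). This call was at the threshold. It was lost on leaving out any 1 library, with adjusted p of 0.0620, 0.182 and 0.102 without shSATB1 replicates 1, 2 and 3 and 0.0676, 0.0693 and 0.0524 without shCtrl replicates 1, 2 and 3, in a range of 0.0401 to 0.314 over all settings. FLT3, a related receptor tyrosine kinase, had 1.46, 1.52 and 1.21 CPM in shSATB1, all below the 1.90, 2.00 and 1.99 CPM in shCtrl, and missed the test (adjusted p = 0.0844). CSF2RB, the beta common chain, held 21 reads in shSATB1 and 10 in shCtrl and was not tested.

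**Figure D3:**
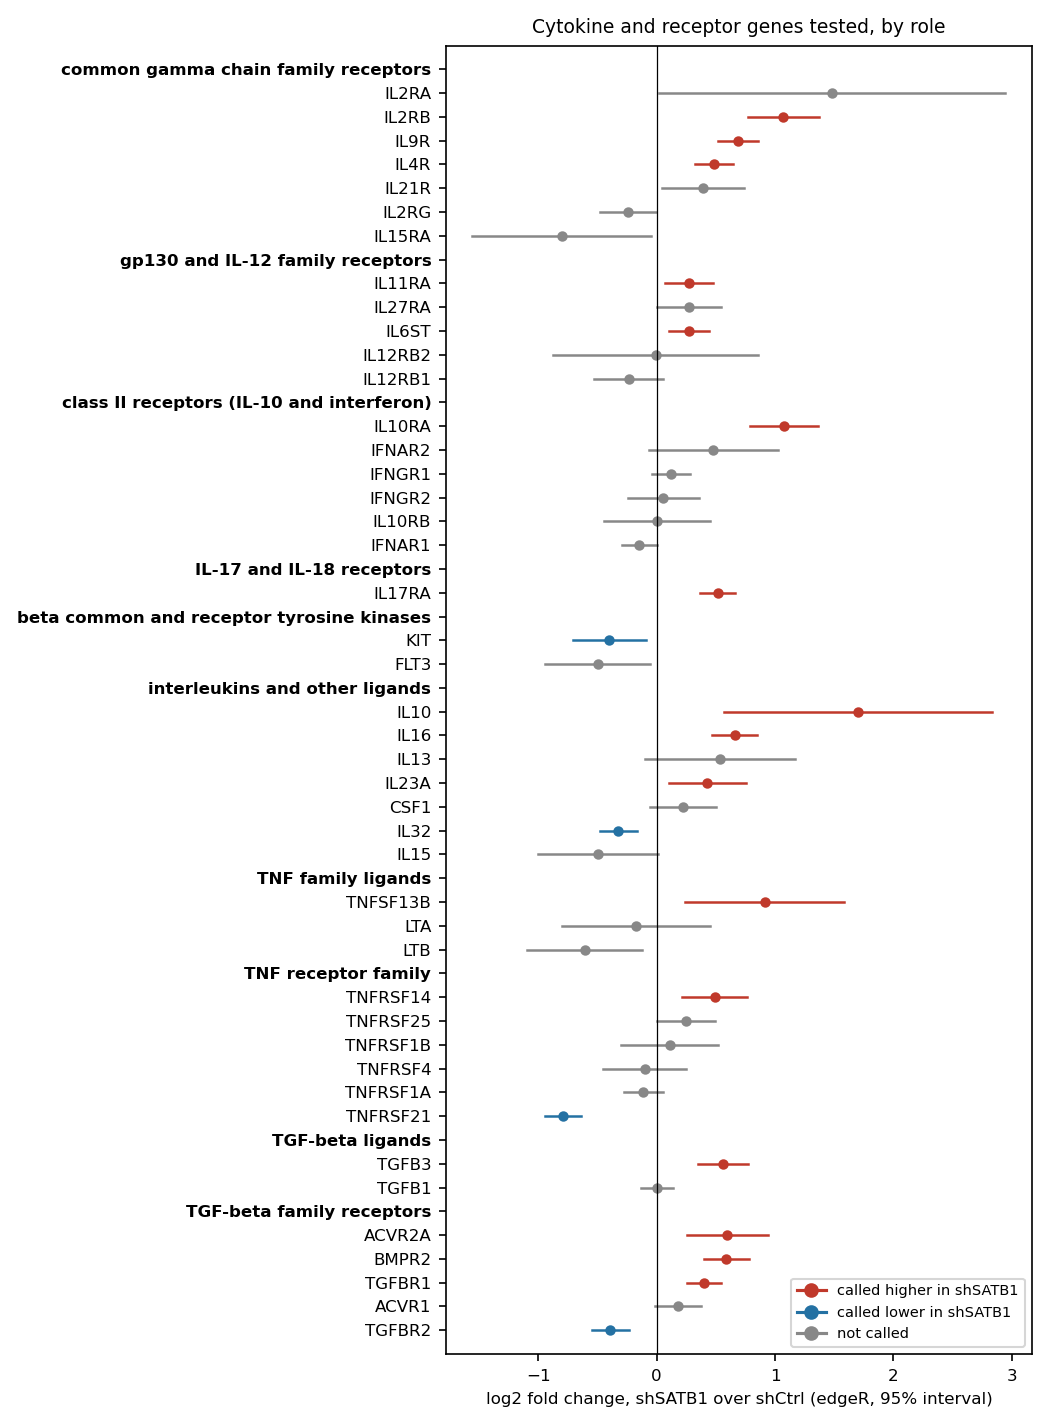
Log2 fold change (shSATB1 over shCtrl) with its 95% interval for the 44 tested genes, grouped by role, in red where called higher, blue where called lower and grey where not called. Most coloured points lie right of 0, and TNFRSF21, TGFBR2, IL32 and KIT lie left of it.

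Of 14 interleukin and other ligand genes, 7 were tested, and IL10, IL16 and IL23A rose while IL32 fell, where 14.3% of all genes tested rose and 16.6% fell. IL16 (chromosome 15, 81159575 to 81314058, plus strand), whose product is a T cell chemoattractant processed from a larger precursor, stood at 31.1, 28.7 and 29.4 CPM in shSATB1, against 20.9, 17.0 and 18.5 CPM in shCtrl. Its groups did not overlap, and it was 1.58-fold higher (1.39 to 1.80, edgeR adjusted p = 0.000115). STARD5, on the opposite strand, shares 36.0% of the exon bases of IL16, and the strand setting of the counting is not given. IL32 (chromosome 16, 3065297 to 3082192, plus strand), a pro-inflammatory cytokine of T and natural killer cells, stood at 81.4, 88.1 and 87.0 CPM in shSATB1, against 97.8, 117 and 106 CPM in shCtrl. All shSATB1 libraries lay below all shCtrl libraries, by 1.25-fold (1.12 to 1.39, adjusted p = 0.00427). IL32 had the highest level per length of the 59 genes as counted in shCtrl, at 33.4 ± 3.07 RPKM, and 26.6 ± 1.12 RPKM in shSATB1.

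IL10, an anti-inflammatory cytokine (chromosome 1, 206767602 to 206772494, minus strand), was 3.25-fold higher (1.48 to 7.12, edgeR adjusted p = 0.0252) from few reads. It held 10, 16 and 15 reads in shSATB1, against 7, 1 and 4 reads in shCtrl, and passed the filter through the shSATB1 libraries alone. Its call could therefore only fall in this direction, and it is given as a description. The groups did not overlap, and the log2 fold change of 1.70 lay between 1.26 and 2.34 with each library left out. Its adjusted p was 0.0937, 0.0881, 0.0885 and 0.0799 without shSATB1 replicates 2 and 3 and shCtrl replicates 2 and 3, each left out alone, in a range of 0.00581 to 0.805 over the settings that gave one. DESeq2 gave IL10 no adjusted p, and with a filter of at least 1 CPM it was not tested. IL23A, the p19 chain of IL-23 (chromosome 12, 56334174 to 56340410, plus strand), stood at 6.44, 6.14 and 4.93 CPM in shSATB1 and at 3.87, 4.98 and 4.14 CPM in shCtrl. It was 1.35-fold higher (adjusted p = 0.0440), with shSATB1 replicate 3 just under shCtrl replicate 2. Without shSATB1 replicates 1 or 2 its adjusted p was 0.163 or 0.128, and without shCtrl replicates 1 or 3 it was 0.0847 or 0.137, in a range of 0.00165 to 0.274.

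The Th2 cytokine genes IL4, IL13 and IL5 lie beside each other on chromosome 5, with gaps of 12875 and 99424 bases. IL4 held 7, 3 and 7 reads in shSATB1 and 3, 12 and 10 reads in shCtrl, and IL5 held 4, 3 and 5 reads in shSATB1 and 3, 1 and 3 reads in shCtrl. Neither reached the filter, and the ratio of pooled reads was 0.661 (0.335 to 1.27) for IL4 and 1.67 (0.605 to 5.0) for IL5. IL13 was the best measured of the 3, at 1.42, 0.882 and 1.55 CPM in shSATB1 and 0.789, 1.09 and 0.776 CPM in shCtrl, with overlapping groups (edgeR adjusted p = 0.186). IL2, the main T cell growth factor, held 7, 11 and 3 reads in shSATB1 and 0, 2 and 3 in shCtrl, a pooled ratio of 4.08 (1.5 to 13.9, counting error only) with groups that touched at 3 reads. IL15 and CSF1 were tested and not called, at 2.10 ± 0.692 and 7.57 ± 1.15 CPM in shSATB1 and 2.96 ± 0.619 and 6.49 ± 0.332 CPM in shCtrl. Without shSATB1 replicate 2 the adjusted p of IL15 was 0.0381, in a range of 0.0381 to 0.967. CXCL8, IFNG and CSF2 held 1, 0 and 3 reads in shSATB1 and 2, 1 and 0 in shCtrl, and MIF, 61.9% of whose exon bases overlap other genes, held none in any library.

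Of 4 TNF family ligand genes, 3 were tested and TNFSF13B rose, where 14.3% of all genes tested rose. TNFSF13B is the gene of the B cell survival factor BAFF (chromosome 13, 108251240 to 108308484, plus strand). It stood at 1.35, 1.02 and 1.00 CPM in shSATB1, against 0.538, 0.800 and 0.443 CPM in shCtrl, without overlap, and was 1.88-fold higher (1.18 to 2.99, edgeR adjusted p = 0.0390). The log2 fold change of 0.91 lay between 0.74 and 1.19 with each library left out. The call was lost without shSATB1 replicates 1, 2 or 3 (adjusted p = 0.163, 0.0731 and 0.0742) and without shCtrl replicates 1 or 3 (0.0720 and 0.154), in a range of 0.0147 to 0.163. TNF, LTA and LTB adjoin on chromosome 6, with TNF 1242 bases from LTA and 2188 bases from LTB. LTB, whose product anchors lymphotoxin in the membrane, had 1.42, 2.08 and 1.24 CPM in shSATB1, all below the 2.73, 2.22 and 2.29 CPM in shCtrl, and missed the test (adjusted p = 0.0550). It was called lower without shSATB1 replicate 2 (0.0252) or shCtrl replicate 2 (0.0319), with no filter (0.0355), by limma-voom (0.0470) and with a replicate block (0.0488), in a range of 0.0252 to 0.279. LTA, lymphotoxin alpha, had 0.815 ± 0.114 CPM in shSATB1 and 0.920 ± 0.195 CPM in shCtrl (adjusted p = 0.684). TNF held 0, 2 and 0 reads in shSATB1 and 3, 3 and 4 reads in shCtrl, a pooled ratio of 0.194 (0.0207 to 0.912, counting error only). None of these 3 neighbours was called.

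In the TNF receptor family 1 of 6 tested genes rose and 1 fell, where 14.3% of all genes tested rose and 16.6% fell. TNFRSF21, death receptor 6 (ENSG00000146072, chromosome 6, 47231532 to 47309905, minus strand), stood at 24.0, 24.2 and 25.6 CPM in shSATB1, against 41.3, 42.0 and 44.4 CPM in shCtrl. The gap between the groups was wide beside their spread. TNFRSF21 was 1.73-fold lower (1.56 to 1.93, edgeR adjusted p = 4.63e-06), the smallest adjusted p of the 44 tested genes. TNFRSF14, the receptor HVEM that binds LIGHT and BTLA (chromosome 1, 2555639 to 2565382, plus strand), stood at 7.32, 9.03 and 7.21 CPM in shSATB1, against 5.17, 6.07 and 5.54 CPM in shCtrl, and was 1.40-fold higher (1.16 to 1.70, adjusted p = 0.0111). Its groups did not overlap, and without shSATB1 replicate 2 the adjusted p was 0.0606, in a range of 0.00191 to 0.123.

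The other TNF receptor genes did not pass. TNFRSF1A, the main TNF receptor of most cells, was abundant at 70.7 ± 5.29 CPM in shSATB1 and 76.4 ± 6.15 CPM in shCtrl, with a 95% interval of -0.27 to 0.05 for its log2 fold change. TNFRSF1B had 1.99 ± 0.163 CPM in shSATB1 and 1.84 ± 0.0127 CPM in shCtrl, and TNFRSF4, the costimulatory receptor OX40, had 3.89 ± 0.651 CPM in shSATB1 and 4.16 ± 0.435 CPM in shCtrl. TNFRSF25, death receptor 3, was at 7.79, 8.82 and 7.31 CPM in shSATB1, above the 6.75, 6.69 and 6.72 CPM of every shCtrl library, with an edgeR adjusted p of 0.120. LTBR held 5, 0 and 5 reads in shSATB1 and none in any shCtrl library, so its groups touched at 0, and TNFRSF9, the activation-induced receptor 4-1BB, held none in any library.

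Of the TGF-beta family receptors 3 of 5 tested genes rose and 1 fell, where 14.3% of all genes tested rose and 16.6% fell. The median exon length of the 5 was 6770 bases, against 4121.5 bases over all genes tested. The chains of the TGF-beta receptor itself moved in opposite directions. TGFBR1, the type I receptor kinase (chromosome 9, 99104038 to 99154192, plus strand), stood at 49.3, 45.5 and 48.3 CPM in shSATB1, against 35.0, 37.1 and 36.6 CPM in shCtrl. TGFBR2, the type II kinase that binds the ligand (chromosome 3, 30606502 to 30694142, plus strand), stood at 39.0, 41.7 and 41.4 CPM in shSATB1, against 58.0, 51.6 and 50.4 CPM in shCtrl. Neither pair of groups overlapped. TGFBR1 was 1.32-fold higher (1.19 to 1.46, edgeR adjusted p = 0.000677) and TGFBR2 1.31-fold lower (1.18 to 1.46, adjusted p = 0.00130). Per length, the ratio of TGFBR1 to TGFBR2 was formed after both levels had been seen and restates their changes. It was 0.807 ± 0.0597 in shSATB1 and 0.470 ± 0.0472 in shCtrl. The log2 difference was 0.78 and lay between 0.70 and 0.84 with each library left out (exact permutation p = 0.1, the smallest possible). TGFBR2 thus remained the higher of the 2 per length in each library of either group.

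BMPR2, the type II receptor of bone morphogenetic proteins (chromosome 2, 202376936 to 202567751, plus strand), stood at 58.6, 53.7 and 62.1 CPM in shSATB1, against 43.1, 33.7 and 39.3 CPM in shCtrl, without overlap. It was 1.5-fold higher (1.32 to 1.71, edgeR adjusted p = 0.000294). ACVR2A, an activin type II receptor (chromosome 2, 147844517 to 147930826, plus strand), stood at 4.44, 3.53 and 4.14 CPM in shSATB1, against 2.83, 2.62 and 2.55 CPM in shCtrl, and was 1.51-fold higher (1.19 to 1.92, adjusted p = 0.0117). Its groups were separate as well, but its adjusted p was 0.0617 without shSATB1 replicate 1 and 0.0509 without shCtrl replicate 3, in a range of 0.00786 to 0.455. ACVR1, an activin and bone morphogenetic protein type I receptor, had 14.7 ± 0.571 CPM in shSATB1 and 12.9 ± 0.735 CPM in shCtrl and was not called (adjusted p = 0.140). TGFBR3, the co-receptor betaglycan, held 12 reads in shSATB1 and 8 in shCtrl.

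Of the ligands, TGFB3 (chromosome 14, 75958099 to 75982991, minus strand) stood at 12.2, 13.3 and 11.9 CPM in shSATB1, against 8.79, 8.0 and 8.57 CPM in shCtrl. Its groups did not overlap, and it was 1.48-fold higher (1.27 to 1.71, edgeR adjusted p = 0.000894). TGFB1, the main TGF-beta of lymphocytes, was higher per length than TGFB3 in every library and had nearly the same level in both groups, at 81.7, 87.8 and 82.1 CPM in shSATB1 and 80.5, 83.3 and 87.8 CPM in shCtrl. The 95% interval of its log2 fold change was -0.13 to 0.14. TGFB2 held 13 reads in shSATB1 and 14 in shCtrl and was not tested.

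**Figure D4:**
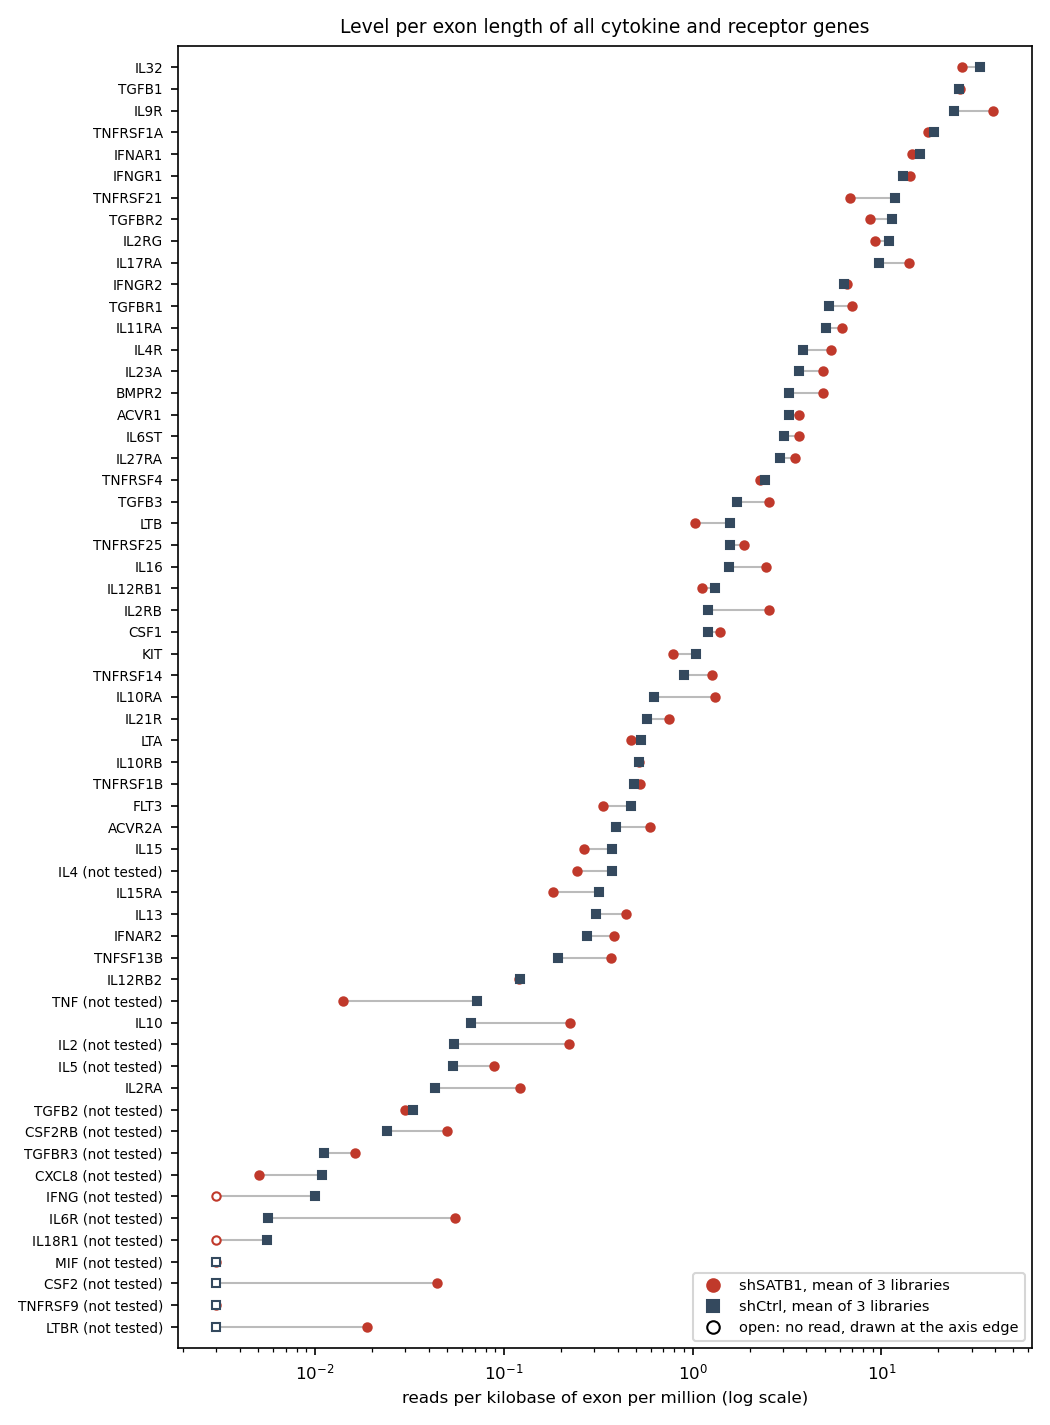
Mean RPKM of all 59 genes on a log axis, 1 row a gene in the order of the shCtrl level, with red circles for shSATB1, dark squares for shCtrl and open symbols at the axis edge for no read. IL9R has 39.0 RPKM in shSATB1 and 24.2 RPKM in shCtrl, and IL32 has 26.6 RPKM in shSATB1 and 33.4 RPKM in shCtrl.

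Between genes, levels are compared per length. The orders hold for the counts as given, which are uncertain for genes that share exon bases with others, such as MIF (61.9%) and IL2RG (50.8%). In shSATB1 the order began with IL9R at 39.0 ± 2.58 RPKM, IL32 at 26.6 ± 1.12, TGFB1 at 25.9 ± 1.05, TNFRSF1A at 17.7 ± 1.32 and IFNAR1 at 14.5 ± 1.01 RPKM. In shCtrl it began with IL32 at 33.4 ± 3.07 RPKM, TGFB1 at 25.9 ± 1.14, IL9R at 24.2 ± 2.25, TNFRSF1A at 19.1 ± 1.54 and IFNAR1 at 16.1 ± 0.825 RPKM. IL9R stood clear of its neighbours in shSATB1, while IL32 and TGFB1 lay within their spread there. In shCtrl it was TGFB1 and IL9R that lay within their spread, and IL32 that stood apart. The 15 genes that could not be tested held between 0 and 42 reads over the 6 libraries, and MIF and TNFRSF9 held none. They were 6 receptor genes (IL6R, IL18R1, CSF2RB, TNFRSF9, LTBR and TGFBR3) and 9 ligand genes (IL2, IL4, IL5, CXCL8, IFNG, CSF2, MIF, TNF and TGFB2).

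The calls differed in how they held over 15 other settings (other normalizations, filters and tools, a replicate term, each library left out, a null of 1.2-fold, a covariate and a length correction). Of 20 calls 7 held in every setting, namely IL2RB, IL4R, IL9R, IL10RA, IL16 and IL17RA among the rises and TNFRSF21 among the falls. How many of all called genes held in every setting was not counted, so these 7 have no share to stand beside. Of all genes tested, the 1.2-fold null called 4.33% higher and 3.98% lower, and the covariate 4.9% and 7.2%, where the main test called 14.3% and 16.6%. TGFBR1 and TGFBR2 missed only against the 1.2-fold null (edgeR adjusted p = 0.0840 in a range of 2.60e-05 to 0.0840, and 0.117 in a range of 9.89e-06 to 0.117). TGFB3 and BMPR2 missed only with the share of reads outside exons as a covariate. For TGFB3 the log2 fold change was then 0.51, against 0.56 without it (adjusted p = 0.0577 in a range of 4.23e-05 to 0.0577). For BMPR2 it was 0.24, against 0.59 without it (0.152 in a range of 3.37e-11 to 0.152). IL32 missed in these 2 settings (0.342 and 0.659, in a range of 3.56e-05 to 0.659), with a log2 fold change of -0.074 with the covariate and -0.32 without it. The remaining 8 calls, TNFRSF14, ACVR2A, IL6ST, IL11RA, IL10, IL23A, TNFSF13B and KIT, are those described above as lost without 1 library, and none of them held against the 1.2-fold null. With the covariate 6 of these 8 were lost, all but TNFRSF14 and IL23A. The groups did not overlap in the covariate, so calls lost or gained with it cannot be laid to either the covariate or the hairpin. DESeq2 did not call IL23A (adjusted p = 0.0816), TNFSF13B (0.0982) or KIT (0.0806), and limma-voom did not call IL23A (0.0505), each within the range given for that gene. KIT was also not called with a filter of at least 1 CPM (0.0550) or with the length correction (0.0553). Of genes not called in the main test, ACVR1, IFNGR1, IL27RA and TNFRSF25 passed with the length correction, and IFNAR1, IFNGR1, IL15RA and IL2RA with the covariate.

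Signal transducers below these receptors were looked at in lists chosen by function. All 23 JAK, STAT, SOCS and PIAS genes were tested, and 8 rose and 1 fell, or 34.8% and 4.35%, where 14.3% of all genes tested rose and 16.6% fell. Their median log2 fold change was 0.16, against 0.01 over all genes tested. Exon length, which went with direction over all genes, had a median of 6317 bases here and 4121.5 bases over all genes tested. Its part in these counts was not tested. JAK3, the kinase that binds the common gamma chain, stood at 33.6, 35.5 and 36.0 CPM in shSATB1, against 25.4, 22.2 and 26.1 CPM in shCtrl, 1.43-fold higher without overlap (edgeR adjusted p = 0.000384, and 0.0619 with the covariate, in a range of 3.13e-07 to 0.0619). SOCS2, a feedback inhibitor of cytokine signalling, stood at 9.36, 10.3 and 9.34 CPM in shSATB1, against 5.74, 6.22 and 5.43 CPM in shCtrl, 1.67-fold higher (adjusted p = 0.000303). STAT5A, which acts below the IL-2 receptor, moved the other way, at 80.5, 82.9 and 78.4 CPM in shSATB1 and 118, 126 and 119.6 CPM in shCtrl, 1.5-fold lower (adjusted p = 1.53e-05). Its close relative STAT5B, at 171 ± 5.62 CPM in shSATB1 and 188 ± 8.69 CPM in shCtrl, was not called.

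Of 12 TGF-beta transducer genes, all tested, 5 rose and 1 fell (41.7% and 8.33%), where 14.3% of all genes tested rose and 16.6% fell. Their median log2 fold change was 0.18. Their median exon length was 8002 bases, against 4121.5 bases over all genes tested. The part of length in these counts was not tested. SMAD7, the inhibitory SMAD that blocks the type I receptor, stood at 9.72, 9.77 and 9.14 CPM in shSATB1, against 2.55, 2.00 and 1.81 CPM in shCtrl, and was 4.49-fold higher (3.62 to 5.57, edgeR adjusted p = 4.37e-07). SKIL, a co-repressor of SMAD proteins, stood at 26.1, 23.4 and 28.4 CPM in shSATB1, against 11.9, 12 and 11.8 CPM in shCtrl, and was 2.19-fold higher (adjusted p = 2.02e-06). SMAD6, an inhibitory SMAD of the bone morphogenetic protein branch, was 1.61-fold lower, at 56.0, 57.1 and 54.7 CPM in shSATB1 and 95.7, 81.7 and 92.2 CPM in shCtrl (adjusted p = 1.47e-05). None of these 3 genes had overlapping groups. The 2 inhibitory SMADs thus moved in opposite directions.

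Of 13 TNF receptor transducer genes, all tested, 4 rose and 2 fell, or 30.8% and 15.4%, where 14.3% of all genes tested rose and 16.6% fell. BIRC2, a ubiquitin ligase at the TNF receptor, stood at 92.5 ± 4.26 CPM in shSATB1 and 67.8 ± 6.16 CPM in shCtrl, 1.36-fold higher (edgeR adjusted p = 0.000539). BIRC3, its paralogue, had 71.1 ± 4.64 CPM in shSATB1 and 57.0 ± 1.62 CPM in shCtrl, 1.25-fold higher (adjusted p = 0.00279, but 0.340 against the 1.2-fold null and 0.134 with the covariate, in a range of 0.000521 to 0.340). TRAF2, the adaptor that brings them to the receptor, had 50.7 ± 1.67 CPM in shSATB1 and 66.2 ± 1.59 CPM in shCtrl, 1.31-fold lower (adjusted p = 0.000498, but 0.0881 against the 1.2-fold null, in a range of 2.51e-06 to 0.0881).

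**Figure D5:**
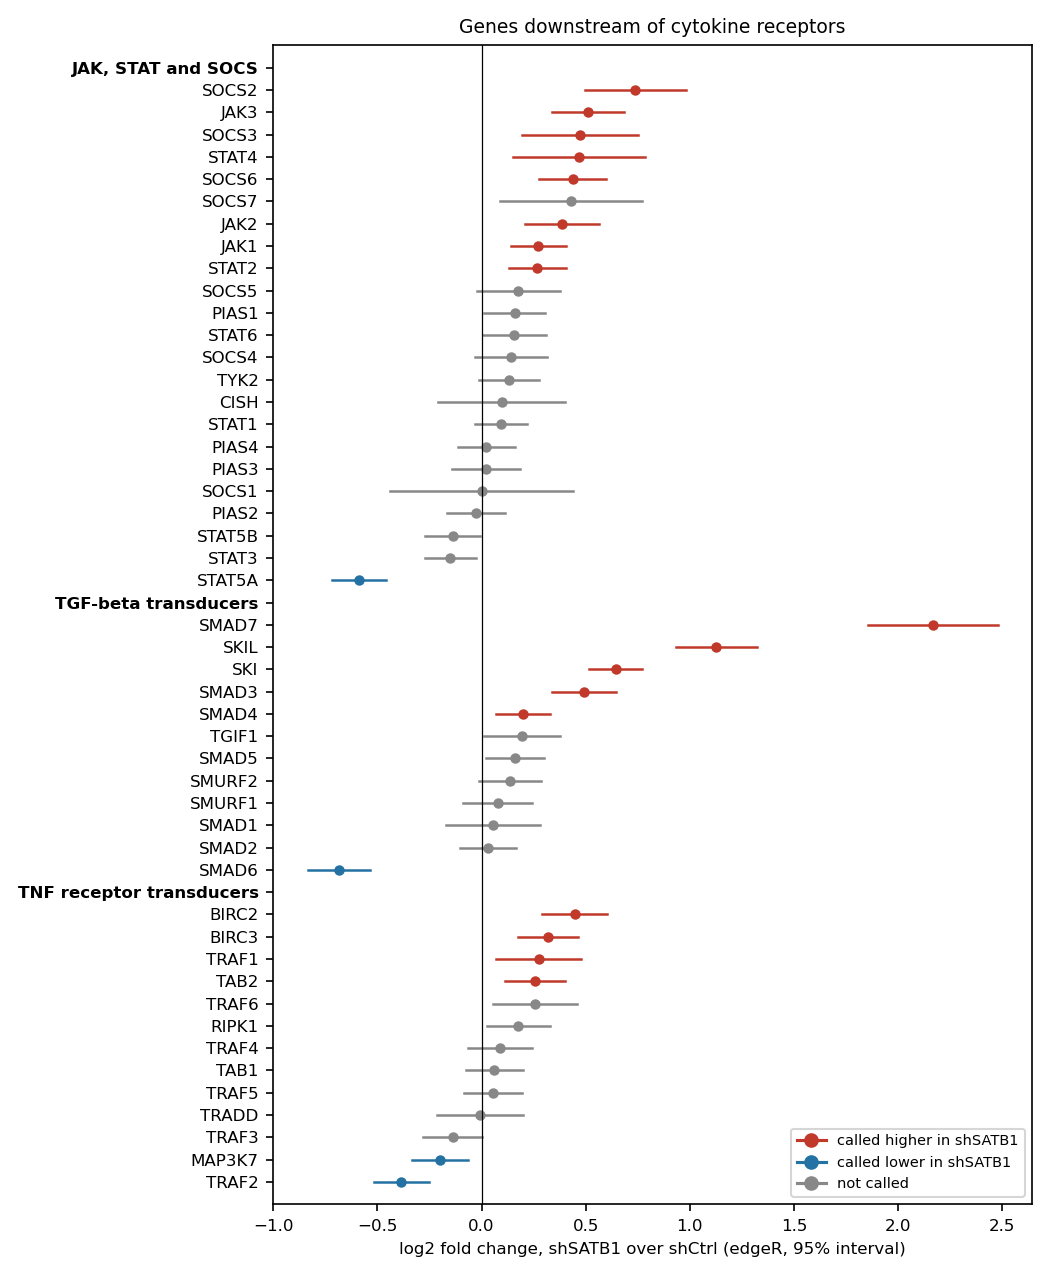
Log2 fold change (shSATB1 over shCtrl) with its 95% interval for the tested genes of the 3 transducer lists, in red where called higher, blue where called lower and grey where not called. SMAD7 at 2.17 and SKIL at 1.13 lie farthest to the right, and SMAD6 at -0.68 and STAT5A at -0.59 farthest to the left.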

How the data were processed

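RNA-seq libraries of Jurkat cells, 3 with shSATB1 and 3 with shCtrl, were grouped by their titles, which also number the replicates. For each library the authors deposited whole-number read counts by Ensembl gene, without any normalization. The build hg38 and the programs Trim Galore, STAR and HTSeq come from the submitters' processing notes, which state no version here. Which annotation release and strand setting were used is not given in the sources used, so counts of overlapping, antisense and near-identical genes are uncertain. The closing lines of each table name no gene and stayed out of library sizes. Of them, reads outside exons made up 7.77% to 11.7% of a library, ambiguous reads 8.99% to 10.1% and reads without a unique alignment 4.22% to 4.53%. All 58735 identifiers matched GENCODE 29, which gave symbols, coordinates and exon lengths.

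Counts were tested with edgeR 4.0.16 in R 4.3.3: TMM, filterByExpr with a minimum count of 10, the quasi-likelihood test of shSATB1 against shCtrl without covariates, and Benjamini-Hochberg adjustment over 17520 genes, calling a gene at 0.05. The variation among libraries beyond counting error, as edgeR estimates it, came to 7.27% (coefficient of variation), part or all of which could be technical. CPM uses TMM-adjusted library sizes, and RPKM divides it by the union of annotated exons in kilobases. Folds and 95% intervals come from the fit. A count of 3 reads stood as the floor, and intervals on pooled reads (exact binomial) cover counting error only. Permutation tests were exact and two-sided (scipy 1.17.1, Python 3.11.15). No 2 libraries were identical. Chi-square values over genes were 2.97 to 4.78 times their degrees of freedom within shSATB1 and 5.75 to 23.1 times within shCtrl. The shCtrl libraries thus differed more among themselves, most of all replicates 1 and 2.

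Named were SATB1, every gene of the list that passed, the IL-2 receptor chains, the 3 of highest RPKM in shCtrl in each role and those not tested, with their reads. Of each further list the 3 called genes of largest change were named. Others of the list are given for completeness or because they are a partner or a neighbour, chosen after their values were seen, as were the chain ratios. The genes, lists and tests were chosen with earlier results of these data known. Other settings were DESeq2 size factors, no filter, at least 1 CPM in 3 libraries, DESeq2 1.42.0, limma-voom (limma 3.58.1), a replicate block, each library left out, a null of 1.2-fold, the share of reads outside exons as a covariate, and offsets from a lowess on exon length. Promoter sequences are RefSeq's for GRCh38.p14 and matched by symbol. Protein sequences were not used here. The code was tested on simulated counts, and figures were drawn with matplotlib 3.10.9.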

Additional observations from a re-analysis of the deposited data

How the results depend on the processing

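Of the genes of the list, 16 rose and 4 fell in the main test. Across the normalizations, filters, tools and the length correction these counts ranged from 13 to 20 higher and from 3 to 6 lower, and with each library left out from 11 to 18 higher and from 3 to 6 lower. Against a null of 1.2-fold they were 8 higher and 1 lower, since small changes then fail by construction. With the share of reads outside exons as a covariate they were 11 higher and 4 lower, and the cause was not tested. The groups did not overlap in this share, so its part and that of the hairpin cannot be told apart. Over all genes, 2500 rose and 2910 fell (14.3% and 16.6% of 17520). With no filter 7.31% and 8.77% of 34788 genes rose and fell, and with DESeq2 6.1% and 8.09% of 34788. With at least 1 CPM it was 18.3% and 18.5% of 14570. DESeq2 size factors gave 14.3% and 16.5%, limma-voom 14.5% and 16.5%, and the length correction 18.7% and 13.8%. The number of genes of the list tested differed between these settings too. The 1.2-fold null gave 758 and 698 (4.33% and 3.98%) and the covariate 858 and 1262 (4.9% and 7.2%). Leaving out 1 library gave 1650 to 3218 higher (9.21% to 17.9%) and 1817 to 3562 lower (10.1% to 19.8%). Without shSATB1 replicate 3 or shCtrl replicate 3 the rises were 1650 and 1662, and without shSATB1 replicate 1 or 3 the falls were 1817 and 1852. The most rises and falls, 3218 and 3562, came without shCtrl replicate 1. The log2 fold change of SATB1 stayed between -1.54 and -1.35 and was called throughout.

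Signs turned only in genes that were not called. IL2RG had a log2 fold change of 0.23 and TNFRSF1A of 0.14 with the covariate. TNFRSF4 had 0.19 with the covariate, 0.14 with the length correction and -0.17 to 0.043 with each library left out. LTA had 0.059 with the length correction and IL15 0.037 with the covariate. IL12RB2 had 0.066 with the covariate, 0.062 with the length correction and -0.40 to 0.23 with each library left out. IL10RB had -0.0076 with no filter, -0.0028 with DESeq2, -0.0070 with limma-voom, -0.056 with the covariate and -0.098 to 0.17 with each library left out. IFNGR2 lay between -0.12 and 0.15 with each library left out. TGFB1 had -0.012 with no filter and -0.0075 with DESeq2, and lay between -0.036 and 0.031 with each library left out. The causes were not tested. Over the named genes and settings, the side of the threshold and the direction were kept in 719 values, a call was lost in 60 and gained in 25, and a sign turned in 28.

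Deviations of libraries with the same replicate number correlated at 0.0798, 0.0712 and 0.0032, so the numbers were not taken to pair the libraries. shSATB1 replicates 1 and 2 each correlated best with the shCtrl library of the same number, and shSATB1 replicate 3 with shCtrl replicate 2, at 0.0126. These correlations are small, and whether the libraries are paired is not settled by them. With a replicate block, 16 genes of the list rose and 6 fell, IL2RG and LTB being the added falls, and over all genes 2783 rose and 3120 fell, and SATB1 stayed called. The 15 untested genes held at most 42 reads over the 6 libraries. MIF, with none, shares exon bases with other genes, and the part of this in its count was not tested.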

Other observations

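Further ligands and receptors outside the list were counted for comparison. Of 40 such genes 27 were tested, and 8 rose and 4 fell (29.6% and 14.8%, where 14.3% of all genes tested rose and 16.6% fell), with a median log2 fold change of 0.07. TNFRSF10A, a receptor for the death ligand TRAIL, stood at 1.93, 1.94 and 1.34 CPM in shSATB1, against 0.718, 0.582 and 0.886 CPM in shCtrl, and was 2.38-fold higher (edgeR adjusted p = 0.00351, and 0.194 with the covariate, in a range of 0.000156 to 0.194). TNFSF10, which encodes TRAIL itself, went the other way, at 8.52, 7.30 and 7.93 CPM in shSATB1 and 10.8, 11.3 and 13.3 CPM in shCtrl, 1.49-fold lower (adjusted p = 0.00183). CD40LG, the T cell ligand that helps B cells, stood at 45.7, 44.7 and 45.0 CPM in shSATB1, against 27, 28.1 and 25 CPM in shCtrl, and was 1.69-fold higher (adjusted p = 6.83e-06). The groups did not overlap in any of these 3 genes.

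IL7R, the IL-7 receptor chain that also pairs with the common gamma chain, had 34.2 ± 1.26 CPM in shSATB1 and 33.1 ± 0.789 CPM in shCtrl (n = 3 each) and was not called, with a 95% interval of -0.10 to 0.20 for its log2 fold change. It was named after its values were seen. JUN, which encodes a subunit of AP-1, stood at 43.4 ± 2.45 CPM in shSATB1 and 20.1 ± 0.213 CPM in shCtrl, 2.16-fold higher (edgeR adjusted p = 4.37e-07), and was looked up after the motif counts. Whether it bears on the promoters that hold the motif was not tested.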
